A study of Mus musculus with 2 samples.

Results

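The replication-dependent histone cluster genes code for the bulk histones that package newly made DNA. They were taken as every non-control probe whose gene name on the array begins with Hist1h, Hist2h, Hist3h or Hist4h. The rule found 77 spots of 68 probes for 56 genes, of 56603 probes and 37073 gene names in all. The genes fall into 6 of linker histone H1, 18 of H2A, 14 of H2B, 9 of H3 and 9 of H4, and each of the 56 names matched 1 current symbol. RNA came from brain of C57BL/6J mice at postnatal day 10 and was read on Agilent arrays of 1 colour. One array held a sample of genotype GPHR F/F;Nes. The other held its littermate control, GPHR F/F (n = 1 per genotype). The labels say no more of the Nes allele, of the deleted part of the gene or of the cells in which it was lost. Both samples carry GPHR F/F, so no sample without that allele was compared. GPHR is the Golgi pH regulator, encoded in the mouse by Gpr89.

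A replication-dependent histone gene is read mainly while a cell copies its DNA, so its RNA is usually abundant only in dividing cells. The RNA usually has no poly(A) tail. It ends instead in a short stem-loop that is bound by Slbp, the stem-loop binding protein, and U7 snRNP, with its Lsm10 and Lsm11 subunits, helps to cut the transcript behind it. At postnatal day 10 the mouse brain still holds dividing cells, among them the progenitors of cerebellar granule cells and of glia. The labelling method primes complementary DNA from a poly(A) tail, as background for reading histone signals. How much of the tailless RNA was labelled on these arrays was not tested.

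The sequences of the histone probes come first because near-identical genes share them. All 60 bases of a probe are given 5′ to 3′ as the deposited scanner files list them, with mm9 positions. For 8 H2A probes, each holds a run of at least 30 bases that is also in another of the 8. The capitals mark the longest run shared with the Hist1h2ah probe, which lies at chr13:22127035-22127094 on the minus strand. The 6 shown end inside or at the end of the coding sequence. Hist1h2aa lies at chr13:24026659-24026718 (plus strand), Hist1h2af at chr13:23626113-23626172 (plus), Hist1h2ak at chr13:21845304-21845363 (minus), Hist1h2an at chr13:21902669-21902728 (plus) and Hist2h2ac at chr3:96024378-96024437 (minus).
Hist1h2ah: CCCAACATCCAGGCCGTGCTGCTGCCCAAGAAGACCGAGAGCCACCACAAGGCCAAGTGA
Hist1h2aa: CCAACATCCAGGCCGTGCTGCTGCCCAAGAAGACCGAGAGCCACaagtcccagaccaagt
Hist1h2af: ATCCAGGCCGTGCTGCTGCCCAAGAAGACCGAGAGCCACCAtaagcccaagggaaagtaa
Hist1h2ak: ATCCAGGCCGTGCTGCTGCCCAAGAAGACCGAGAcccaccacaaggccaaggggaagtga
Hist1h2an: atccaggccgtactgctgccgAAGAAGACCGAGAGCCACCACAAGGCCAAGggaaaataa
Hist2h2ac: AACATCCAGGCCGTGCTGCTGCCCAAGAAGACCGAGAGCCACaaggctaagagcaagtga
The run shared with Hist1h2ah was 44 bases for Hist1h2aa, 41 for Hist1h2af, 34 for Hist1h2ak, 30 for Hist1h2an and 42 for Hist2h2ac. Signals of these probes therefore cannot be told apart by gene.

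A second set of probes reaches the stem-loop itself. The motif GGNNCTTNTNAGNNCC, with N for any base and read on the probe strand, was found in 6 of the 68 histone probes and in 10 of all 56603 probes. The stretch around it is given for each, with the motif in capitals. On mm9 the probes lie at chr13:23665629-23665688 for Hist1h2bf (minus strand), chr13:23853756-23853815 for Hist1h3a (minus), chr13:23627719-23627778 for Hist1h3g (plus), chr13:21874784-21874843 for Hist1h3i (minus), chr13:21903960-21904019 for Hist1h4m (plus) and chr3:96074056-96074115 for Hist2h2bb (plus).
Hist1h2bf: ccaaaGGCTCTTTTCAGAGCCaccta
Hist1h3a: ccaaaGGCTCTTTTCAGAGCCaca
Hist1h3g: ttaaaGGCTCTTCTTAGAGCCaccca
Hist1h3i: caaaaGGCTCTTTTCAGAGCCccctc
Hist1h4m: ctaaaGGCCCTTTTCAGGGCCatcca
Hist2h2bb: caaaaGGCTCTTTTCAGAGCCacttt
The 16 letters of the motif were the same in 4 of the 6 probes, all but those of Hist1h3g and Hist1h4m.

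The samples as a whole set limits on what follows. The probe signals had their 75th percentile at 173.4 units in GPHR F/F;Nes, against 259.5 units in GPHR F/F. The share of probes well above background, the scanner software's call for a signal clear of its surroundings, was 69.2% in GPHR F/F;Nes and 67.0% in GPHR F/F. Both arrays were on 1 slide and read in 1 scan, and no probe was saturated. Gpr89 gave 20.04 units in GPHR F/F;Nes and 43.3 units in GPHR F/F, a log2 difference of -0.53 after scaling to the 75th percentile. The sources used here do not place its probe relative to the deleted part. Xist, the RNA of the inactive X chromosome, gave 234 units in GPHR F/F;Nes against 1.36 units, not above background, in GPHR F/F, and Eif2s3y, a gene of the Y chromosome, gave 1.93 units in GPHR F/F;Nes, against 710.4 units in GPHR F/F. The pair of animals differs in these sex-linked genes, so sex and genotype cannot be told apart.

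Most histone genes were modestly higher in GPHR F/F;Nes, and few passed 2-fold. Of the 56 genes, 48 were measured, that is well above background on both arrays. Their median log2 difference, taken as GPHR F/F;Nes minus its GPHR F/F control with each array set to its own 75th percentile, was 0.35, against 0.07 over all 23948 measured genes. The differences ran from -0.42 to 1.22, with 41 genes above 0 and 7 below. Of all measured genes, 13650 were above 0 and 10298 below. Only Hist1h2ac and Hist1h3g were at least 2-fold higher and none of the 48 was 2-fold lower, beside 7.93% of all measured genes that were 2-fold higher and 1.37% that were 2-fold lower. The histone share, 4.17%, was not above that of the whole array. With 1 array per genotype there is no replicate check and no test of any difference. The ± values below are the error that the scanner software gives for the 2 signals, which leaves out all variation between animals. Its median over the histone genes was 0.20. Of the 48 genes, 28 were above 0 by more than their own error and 4 were below 0 by more than it. That count was not made over all measured genes, so it has no baseline. The 28 include the 8 H2A genes whose probes share runs and cannot be told apart by gene.

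The direction depends on the scale. The unscaled signals were lower in GPHR F/F;Nes for 39 of the 48 genes, as for 19570 of all 23948. Centring each array on its median in place of its 75th percentile moved the all-gene median to -0.20 and the histone median to 0.08, with 26 genes above 0 and 22 below, and left 0 histone genes at 2-fold beside 1077 genes higher and 809 lower over the array. Scaling to the spike-in RNAs, whose 8 probes differed in unscaled log2 signal by 0.14 to 1.28, gave a histone median of -0.67 beside -0.95 for all genes, with 2 genes above 0 and 46 below. On that scale 8 histone genes, or 16.7%, were at least 2-fold lower, beside 10942 genes, or 45.7%, over the array. Relative to the median of all measured genes, a comparison that such constants cannot change, the histone median stood 0.28 higher and 37 of the 48 genes lay above that median and 11 below. Each "above 0" or "below 0" that follows is on the 75th percentile scale and would turn for small differences under the other constants. The excess over the all-gene median was not there without the filter on dim probes. With every probe kept, all 56 genes had a median of 0.29 against 0.27 over 37073 genes, and 28 lay above the all-gene median and 28 below.

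**Figure D1:**
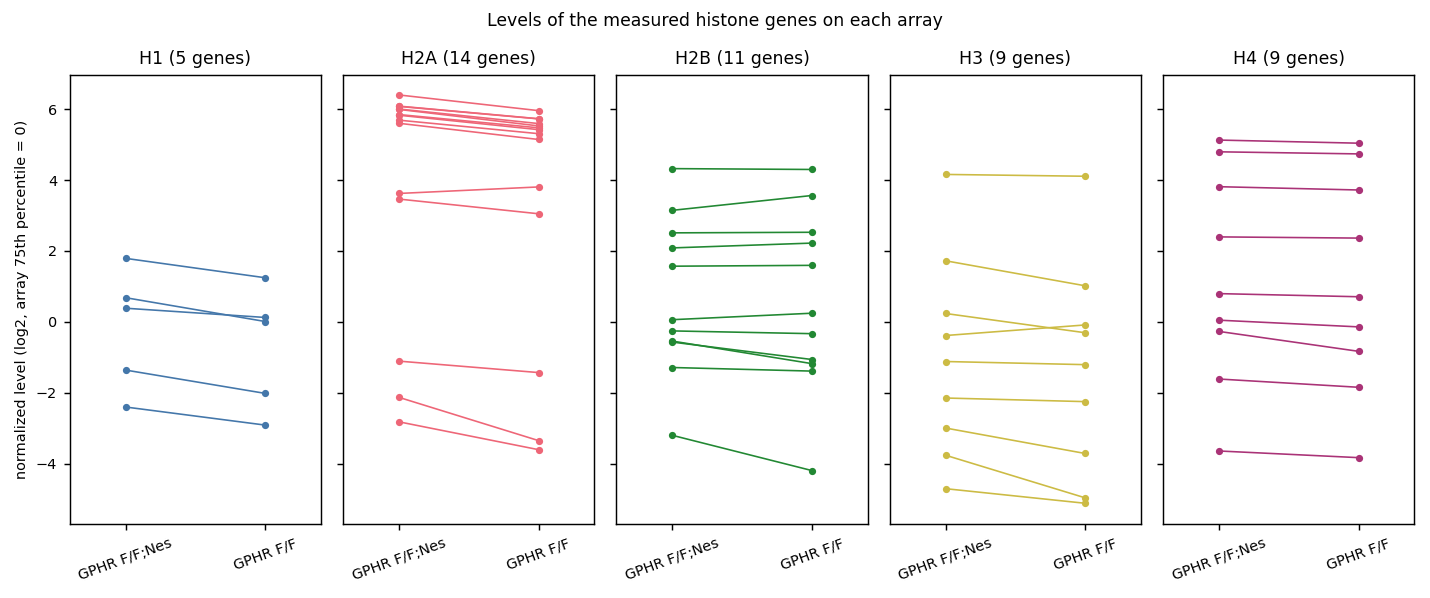
Normalized log2 level of each measured histone gene on the GPHR F/F;Nes array (left) and the GPHR F/F array (right), by class, with a line joining the values of 1 gene and 0 at each array's 75th percentile. Lines fall to the right for all 5 H1 genes and run nearly level for most H4 genes.

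The linker histones, which bind the DNA between nucleosomes, were higher in GPHR F/F;Nes at every one of the 5 measured genes. Hist1h1b (H1f5) gave 278 units in GPHR F/F;Nes and 261 units in GPHR F/F, a log2 difference of 0.67 ± 0.20. Hist1h1d (H1f3) gave 67.6 and 64.1 units in the same order of arrays, a difference of 0.66 ± 0.21. These unscaled signals were close on the 2 arrays, while the median unscaled log2 difference over all measured genes was -0.51. Relative to the all-gene median, which no scaling constant changes, Hist1h1b stood 0.60 higher and Hist1h1d 0.58 higher. Hist1h1e (H1f4) gave 600.0 units in GPHR F/F;Nes and 615 units in GPHR F/F, a difference of 0.55 ± 0.20. Hist1h1a (H1f1) gave 32.9 units in GPHR F/F;Nes and 34.5 units in GPHR F/F, a difference of 0.51 ± 0.22. Hist1h1c (H1f2) had the smallest difference of the class, 0.26, from probes at 0.38 and 0.15. The class median was 0.55, and all 5 genes were above the all-gene median. The testis gene Hist1h1t was above background in GPHR F/F alone, at 5.11 units in GPHR F/F;Nes and 7.13 units in GPHR F/F, too close to the floor for a fold.

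H2A, a partner of H2B in the nucleosome core, had a median of 0.41 over 14 of 18 genes, 13 of them above 0. The 8 probes with shared runs supply 8 of these genes and lay within 0.35 to 0.47 of log2 difference, from Hist1h2af at 0.35 ± 0.20 to Hist1h2ag at 0.47 ± 0.20. Hist1h2aa, a testis histone gene whose probe shares 44 bases with Hist1h2ah, gave 11754 units in GPHR F/F;Nes and 13748 units in GPHR F/F. Hist1h2ah itself gave 14622 units in GPHR F/F;Nes and 16107 units in GPHR F/F. Over the 8 probes the signals spanned 8404 to 14622 units in GPHR F/F;Nes and 9165 to 16107 units in GPHR F/F. With those 8 counted as 1 value, the histone median was 0.23 over 41 values. Hist2h2aa2, at 0.38 ± 0.20, and Hist1h2ab, at 0.41 ± 0.20, shared at most 29 and 15 bases with another histone probe and lay in the same range. The Hist2h2aa2 probe differed from the probe of another histone gene at only 5 of its 60 bases, so its value is not independent of such genes. Hist1h2ai was at 0.32 ± 0.21, and its second probe was not well above background on either array.

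Hist1h2ac (H2ac6) had the highest difference of the measured histone genes in the reported setting. It gave 39.7 units in GPHR F/F;Nes and 25.5 units in GPHR F/F, 1.22 ± 0.22 on the log2 scale. With normexp background correction and quantile normalization it was at 0.36, below Hist1h3c at 0.72. Its only probe starts 2426 bases into the transcript, beyond the coding part that the probes of the family read. The 6 probes that hold the stem-loop motif start at bases 345 to 440 of their transcripts. Whether a probe as far in as that of Hist1h2ac reads RNA that ends in the stem-loop was not tested. Hist2h2aa1, whose probe starts at base 1673, gave 24.6 units in GPHR F/F;Nes and 21.4 units in GPHR F/F, a difference of 0.79 ± 0.24. Hist3h2a, of the small Hist3 cluster, was the only H2A gene below 0, at -0.18 ± 0.14, and its probes disagreed. The probe at base 200 gave 2145 units in GPHR F/F;Nes and 3105 units in GPHR F/F, a difference of 0.05. The probe at base 767 gave 2121 units in GPHR F/F;Nes and 4234 units in GPHR F/F, a difference of -0.42. Hist2h2ab cleared background in GPHR F/F alone, at 4.92 units in GPHR F/F;Nes and 7.81 units in GPHR F/F, and its bound over the floor was smaller than its scanner error of 0.45, so no fold is given. The genes Hist1h2ad, Hist1h2ae and Hist1h2al were not well above background on either array.

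H2B had a median of 0.02, lower than that of H2A, over 11 of 14 genes, 6 above 0 and 5 below, and the median was -0.25 with arrays centred on their medians. Hist1h2bq, whose probe starts at base 1861, gave 18.9 units in GPHR F/F;Nes and 14.2 units in GPHR F/F, a difference of 0.99 ± 0.25. Hist1h2bf gave 119 units in GPHR F/F;Nes and 115 units in GPHR F/F, a difference of 0.64 ± 0.21. Hist2h2bb had a mean of 0.49 over probes at 0.60 and 0.39. Those 3 were the H2B genes above 0.20. Hist1h2be at 0.10, Hist1h2bb at 0.08, Hist1h2bc at 0.02, Hist1h2bm at -0.02 and Hist1h2bn at -0.02 were within their errors of 0. The Hist1h2bm probe and the brighter Hist1h2bb probe are each annotated to 4 genes, and the Hist1h2bq and Hist1h2bf probes to 2. Signals of these 4 probes cannot be assigned to 1 gene. Hist1h2bc, one of the brighter H2B probes, gave 3466 units in GPHR F/F;Nes and 5101 units in GPHR F/F. The testis H2B gene Hist1h2ba was at -0.14 ± 0.20 and Hist2h2be at -0.18 ± 0.14. Hist3h2ba had the lowest difference of all 48 histone genes, -0.42 ± 0.14, with probes at -0.44 and -0.39. Its probes gave 2639 units in GPHR F/F;Nes and 5369 units in GPHR F/F, and 891 and 1753 units in the same order of arrays. Hist1h2bp cleared background in GPHR F/F alone, at 4.45 units in GPHR F/F;Nes and 11.3 units in GPHR F/F. Against the floor it was at least 1.49-fold lower in GPHR F/F;Nes, leaving its scanner error of 0.45 on the log2 scale aside. Hist1h2bg, at 4.90 units in GPHR F/F;Nes and 7.99 units in GPHR F/F, had a bound smaller than its error of 0.52, so no fold is given. The pseudogene Hist3h2bb-ps was not well above background on either array.

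**Figure D2:**
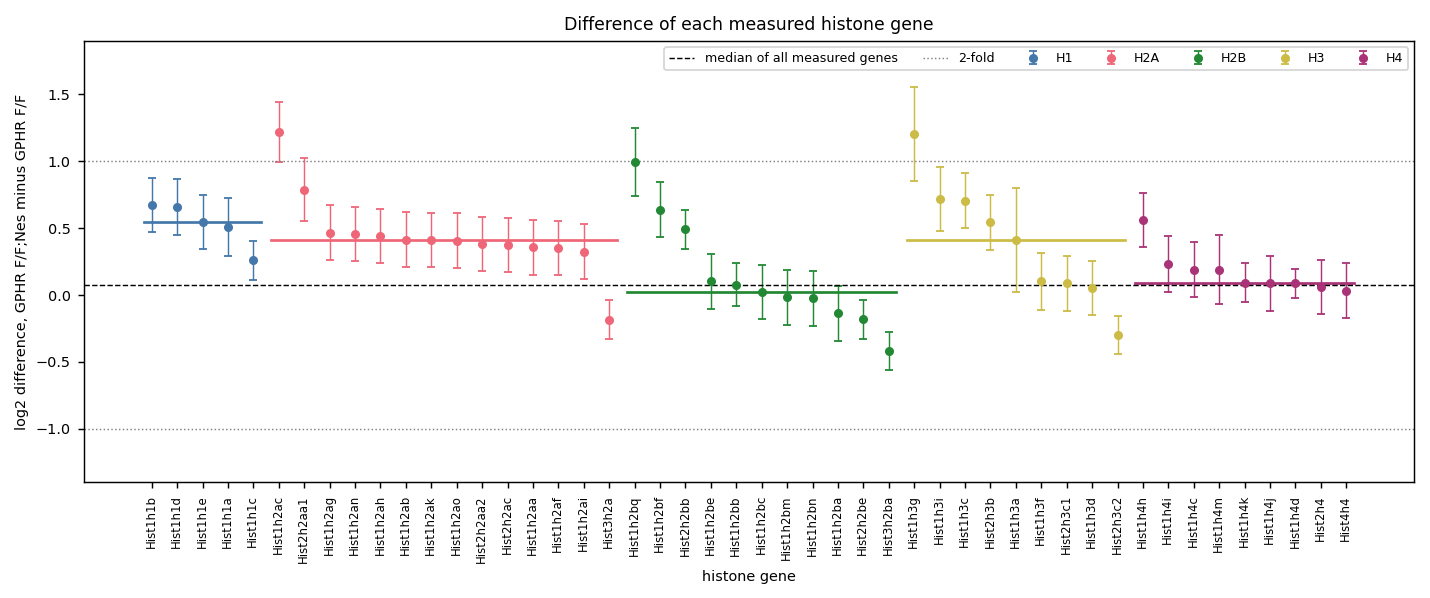
Log2 difference, GPHR F/F;Nes minus control, of each measured histone gene by class on the 75th percentile scale, with the scanner's error as bars, the class median as a coloured line and the median of all genes (0.07) dashed. The 2-fold lines are dotted, and Hist1h2ac at 1.22 and Hist1h3g at 1.20 are the only points beyond them.

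H3, whose tail carries many of the known histone marks, had all 9 genes measured, a median of 0.41 and 8 above 0. Hist1h3g gave 12.8 units in GPHR F/F;Nes and 8.33 units in GPHR F/F, a difference of 1.20 ± 0.35, on a dim probe whose error is large, and was at 0.12 with normexp and quantile normalization. Hist1h3i gave 21.8 units in GPHR F/F;Nes and 19.8 units in GPHR F/F, a difference of 0.72 ± 0.24. Hist1h3c, much brighter on both arrays, gave 572 units in GPHR F/F;Nes and 525 units in GPHR F/F, a difference of 0.71 ± 0.20. Hist2h3b was at 0.54 ± 0.20. The dimmest H3 gene, Hist1h3a, gave 6.66 units in GPHR F/F;Nes and 7.49 units in GPHR F/F, 0.41 ± 0.39. Hist1h3f at 0.10, Hist2h3c1 at 0.09 and Hist1h3d at 0.05 were within their errors of 0. The Hist1h3d probe is annotated to 4 genes and the Hist2h3b probe to 3. Hist2h3c2 was the only H3 gene below 0, at -0.30 ± 0.14. Its probes agreed, at -0.37 and -0.23.

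H4, the most conserved of the core histones, had all 9 genes measured and all above 0, from 0.03 to 0.56, with a median of 0.09, which was -0.18 with arrays centred on their medians and 0.02 above the all-gene median in both cases. Hist1h4h was the highest, at 144 units in GPHR F/F;Nes and 146 units in GPHR F/F, a difference of 0.56 ± 0.20. Hist1h4i was at 0.23 ± 0.21, and Hist1h4c and Hist1h4m were both at 0.19. Hist1h4k, Hist1h4j, Hist1h4d, Hist2h4 and Hist4h4 lay at 0.03 to 0.09. The probes of Hist1h4c, Hist1h4k, Hist1h4j and Hist1h4m, and 1 probe of Hist1h4d, are annotated to 2 to 4 genes. Their signals cannot be assigned to 1 gene. Hist1h4d has a probe with 10 spots on each array, of which 9 entered because 1 spot of the GPHR F/F;Nes array was an outlier. It gave 11468 units in GPHR F/F;Nes and 16230 units in GPHR F/F, and a difference of 0.08 ± 0.07. The SD over all 10 spots, the outlier included, was 0.04 log2 units in GPHR F/F;Nes and 0.02 log2 units in GPHR F/F.

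The difference depended on the level of a gene, and histone levels span the whole range. In 20 bins of mean level, the median of all genes was 0.41 in the dimmest bin, -0.12 in bin 18 and 0.05 in the brightest. Set against the median of their own bin, 40 of the 48 histone genes were above it. By class that held for 5 of 5 H1, 13 of 14 H2A, 8 of 11 H2B, 6 of 9 H3 and 8 of 9 H4 genes. Their median excess over the bin was 0.57 for H1, 0.35 for H2A, 0.10 for H2B, 0.15 for H3 and 0.15 for H4. The 8 H2A genes whose probes share runs all lie in the brightest bin and above its median. Since those 8 cannot be told apart by gene, they are not 8 separate results in these counts. Both genes past 2-fold, Hist1h2ac and Hist1h3g, were dim. Over the array, 1641 of the 1900 genes at least 2-fold higher also lay below the 75th percentile on average. Of the 27 histone genes above the 75th percentile on average, none was past 2-fold. Of all 8590 genes there, 259 were 2-fold higher and 102 were 2-fold lower, so few are past it at that level. The median of the 27 was 0.26, against -0.07 for the 8590.

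**Figure D3:**
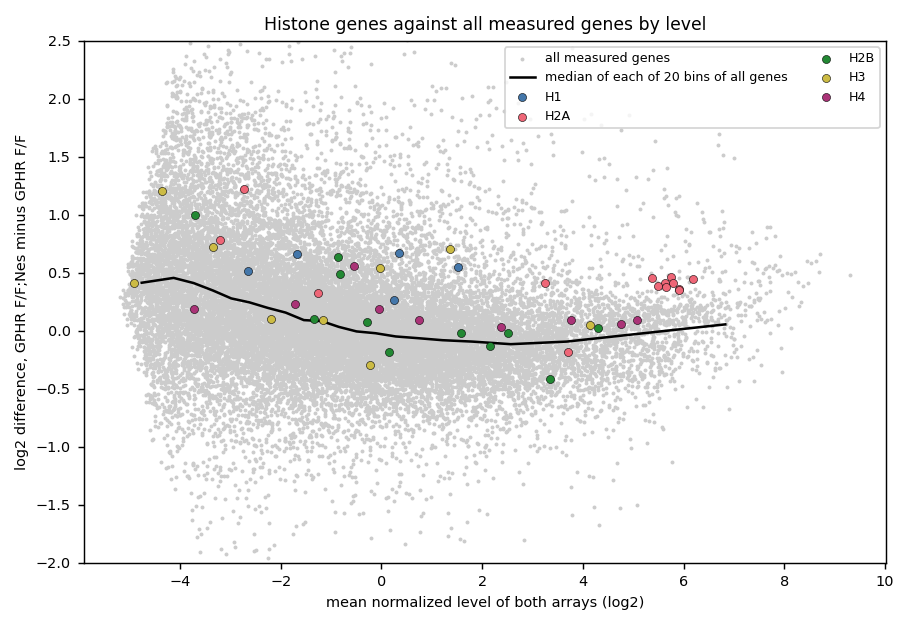
Log2 difference, GPHR F/F;Nes minus control, against the mean normalized level of both arrays for all measured genes (grey, points beyond the axis limits not drawn) and for the histone genes by class, with the median of 20 bins of all genes as a line. The H2A points near level 6 lie together above the line, and both points past 1 lie at low levels.

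By gene cluster, the median was 0.38 for the 36 measured Hist1 genes on chromosome 13 and 0.37 for the 9 Hist2 genes on chromosome 3. These 2 medians are not independent, because H2A probes that share runs belong to both clusters. The Hist2 median is the value of Hist2h2ac, whose probe is in that family. The Hist3 genes on chromosome 11, Hist3h2a and Hist3h2ba, were below 0, and Hist4h4 on chromosome 6 was at 0.03. The 6 probes that hold the stem-loop motif were all above the all-gene median, at 0.19 to 1.20 with a median of 0.62. Probes that start at least 900 bases into their transcript had a median of 0.12 over 10 of 12. Both subsets mix classes and levels, and the other 4 probes with the motif carry other gene names.

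Promoter letters were read in the 250 bases before each start site in the RefSeq promoter table (GRCm38.p6), which held 50 windows for 49 histone genes. CCAAT, on either strand, was in 42 of the 50 windows, against 33.8% of all 32851 promoters. It was in all H1, H2A and H2B windows, in 5 of 7 H3 windows and in 2 of 8 H4 windows. TATAAA was in 24 of the 50, against 12.4% of all. ATTTGCAT, the octamer that Oct factors such as Pou2f1 bind, was in 7 of 17 H2A and 6 of 12 H2B windows and in no H1, H3 or H4 window, against 1.60% of all. A match is a description of letters and not a bound site.

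H2A and H2B genes often lie head to head with a shared promoter, and 6 such pairs were found. In 3 of them both genes were measured. Hist1h2ak was at 0.41 and Hist1h2bn at -0.02, Hist1h2ao at 0.41 and Hist1h2bq at 0.99, and Hist1h2aa at 0.36 and Hist1h2ba at -0.14. The H2A gene had the higher difference in 2 of the 3 pairs, and all 3 H2A probes belong to the family that shares runs. The whole stretch between the start sites of the first 2 pairs is given on the plus strand (RefSeq, GRCm38.p6), with CCAAT and its reverse complement ATTGG in capitals. It lies at chr13:21753913-21754075 for Hist1h2ak and Hist1h2bn and at chr13:21810200-21810366 for Hist1h2ao and Hist1h2bq.
Hist1h2ak and Hist1h2bn: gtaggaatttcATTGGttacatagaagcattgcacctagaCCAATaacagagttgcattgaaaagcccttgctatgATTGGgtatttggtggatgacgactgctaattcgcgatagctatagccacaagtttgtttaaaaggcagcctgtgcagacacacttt
Hist1h2ao and Hist1h2bq: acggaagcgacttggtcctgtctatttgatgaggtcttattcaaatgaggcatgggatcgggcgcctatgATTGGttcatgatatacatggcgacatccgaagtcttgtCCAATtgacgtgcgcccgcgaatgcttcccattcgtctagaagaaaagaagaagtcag
The first holds 3 matches and the second holds 2.

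Genes that act with the histones in dividing cells were set beside them. The lists were chosen with earlier results of these data known. Of 48 DNA replication genes, 47 were measured with a median of 0.38, 43 of them above 0, and 2, or 4.26%, were at least 2-fold higher, beside 7.93% of all genes. Pole2, a subunit of DNA polymerase epsilon, was at 1.36 ± 0.15, the S-phase kinase Cdk2 at 1.21 ± 0.24, Uhrf1, which maintains DNA methylation, at 0.95 ± 0.20 and Gins2, of the replicative helicase, at 0.95 ± 0.15. Pcna, the sliding clamp, was at 0.23 ± 0.20. The 4 below 0 were Ccne1, Cdc7, Orc6 and Rfc5, named after their values were seen. All 31 mitosis genes were above 0, with a median of 0.70, and 3, or 9.68%, were at least 2-fold higher, near the share of all genes. The mitotic kinase Cdk1 was at 1.25 ± 0.21, Ndc80 of the kinetochore at 1.098 ± 0.21, Aurkb at 1.07 ± 0.18 and Ccnb1 at 0.97 ± 0.11. Top2a was at 0.82 ± 0.10 and Mki67 at 0.57 ± 0.20. The median of the histone genes thus lay near that of the replication list and below that of the mitosis list, beside 0.07 for all genes. With the 8 H2A probes that share runs counted once, the histone median was 0.23. The H2B and H4 medians, 0.02 and 0.09, lay near that of all genes and not near that of the replication list.

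Genes that act on histone RNA, a list of transcription and 3′ end processing genes that also holds the decay factors Upf1, Lsm1, Dis3l2 and Eri1 and the translation factor Ctif, were mostly below 0. Of the 26, 21 were below 0 and 5 above, and their median was -0.13. Lsm11, of U7 snRNP, was at -0.41 ± 0.15, Ctif, which drives translation from the nuclear cap-binding complex, at -0.38 ± 0.14, Cpsf2, of the cleavage complex, at -0.36 ± 0.20 and Npat, the coactivator of histone genes, at -0.24 ± 0.21. Slbp was the highest of the 5 above 0, at 0.33 ± 0.12 from probes at 0.66, 0.30 and 0.03, with another probe above background in GPHR F/F alone, and the other four were Lsm1, Dis3l2, Cpsf3 and Ncbp2, named after their values were seen. Against the all-gene median, 3 of the 26 were above and 23 below.

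The replication-independent variants, many but not all of which have poly(A) tails and are made throughout the cell cycle, had a median of 0.05 over 14 of 18 genes. Of these, 7 were above 0 and 7 below, and the median was -0.23 with arrays centred on their medians. H2afv was at 0.60 ± 0.20 and Cenpa, the centromere H3, at 0.58 ± 0.20. H1fx was at -0.45 ± 0.14 and H1foo, the oocyte linker histone, at 0.38 ± 0.21. Histone chaperones, which carry histones to DNA, had a median of 0.07 over 29 genes, 18 above 0 and 11 below, or -0.21 with arrays centred on their medians. Asf1b was at 0.87 ± 0.20 and Mcm2, which also belongs to the replication list, at 0.60 ± 0.20. Nap1l3 was at -0.68 ± 0.20 and Hjurp, the Cenpa chaperone, at 0.55 ± 0.16.

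**Figure D4:**
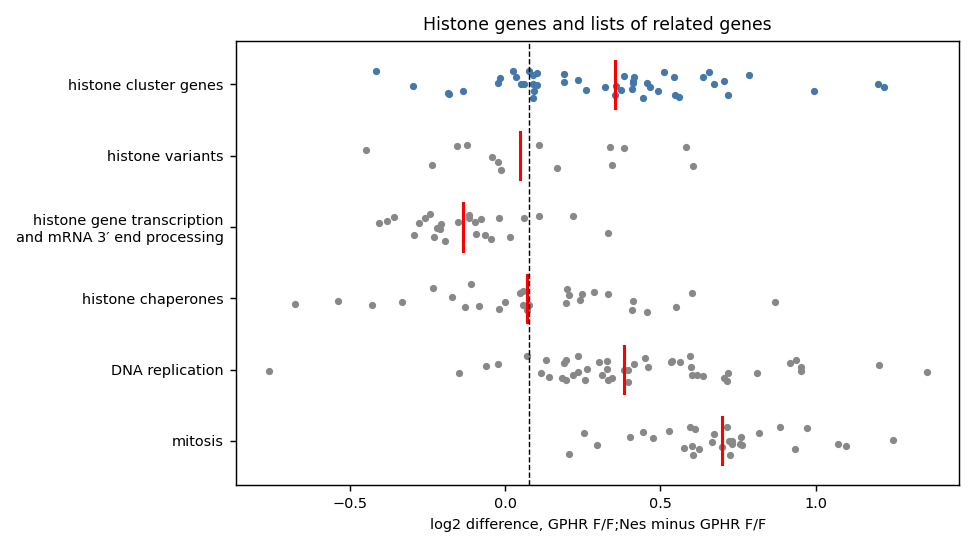
Log2 difference, GPHR F/F;Nes minus control, of each measured gene of the histone clusters and of 5 lists of related genes, on the 75th percentile scale, with list medians in red and the median of all genes dashed. The mitosis genes all lie above 0, and 21 of 26 genes of histone transcription and 3′ end processing lie below it.

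Markers of cell types moved too, and in bulk tissue a change in the number of cells of a type and a change in RNA per cell cannot be told apart. Neural stem cell and neuroblast markers had a median of 0.64 over 10 genes, 7 above 0, with a summed normalized level, on a linear scale where 1 is the array's 75th percentile, of 117 in GPHR F/F;Nes and 63.6 in GPHR F/F. The 3 below 0 were Dlx1 at -0.51, Dlx2 at -0.21 and Dcx at -0.20, named after their values were seen. Granule cell progenitor markers had a median of 0.27 over 11 of 12, 8 above 0, with sums of 57.4 in GPHR F/F;Nes and 50.01 in GPHR F/F, and Atoh1 was not measured. Oligodendrocyte precursor markers had a median of -0.44, 7 of 8 below 0, with sums of 23.5 in GPHR F/F;Nes and 32.7 in GPHR F/F. All 10 mature neuron markers were below 0, with a median of -0.57 and sums of 103 in GPHR F/F;Nes and 152 in GPHR F/F. Medians of 4 lists of non-neural cells were above 1. The median was 1.30 for 10 of 12 microglia markers (P2ry12 and Tmem119 not measured), with sums of 5.63 in GPHR F/F;Nes and 3.77 in GPHR F/F. It was 1.34 for 10 meninges and fibroblast markers, 9 above 0 (sums of 12.03 and 8.14), 1.35 for 6 of 8 choroid plexus markers (6.58 and 1.27, Kl and Clic6 not measured) and 1.21 for 4 of 8 endothelial markers, 3 above 0 (6.28 and 2.73), GPHR F/F;Nes first. Single genes carry some sums. Without Ccnd2 the granule cell progenitor sum was 27.46 in GPHR F/F;Nes and 27.49 in GPHR F/F, so its difference was gone. Without Ttr the choroid plexus sum was 2.45 in GPHR F/F;Nes and 1.17 in GPHR F/F, without Kdr the endothelial sum was 0.52 in GPHR F/F;Nes and 0.27 in GPHR F/F, without Dcn the meningeal sum was 5.85 in GPHR F/F;Nes and 1.66 in GPHR F/F, and without Vim the stem cell sum was 31.6 in GPHR F/F;Nes and 24.7 in GPHR F/F. Astrocyte markers had a median of 0.19 over 8 genes, and 2 of 8 erythrocyte markers were measured, both below 0. The part that any of these cells has in the histone values was not tested.

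H1 and H2A medians lay above those of H2B and H4 in all 15 settings compared, the reported one included. Several of these settings could hardly change that order. Median centring, spike-in scaling and the deposited value table nearly or wholly amount to a constant shift, and the mismatch filter removed no probe. Taking the median over the probes of a gene left every class median as reported. Keeping outlier spots and counting the H2A probes with shared runs once barely moved the class medians. The place of H3 depended on the setting. Its median of 0.41 became 0.13 under quantile normalization, 0.15 under the loess correction and 0.09 where both signals had to reach 50 units.

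**Figure D5:**
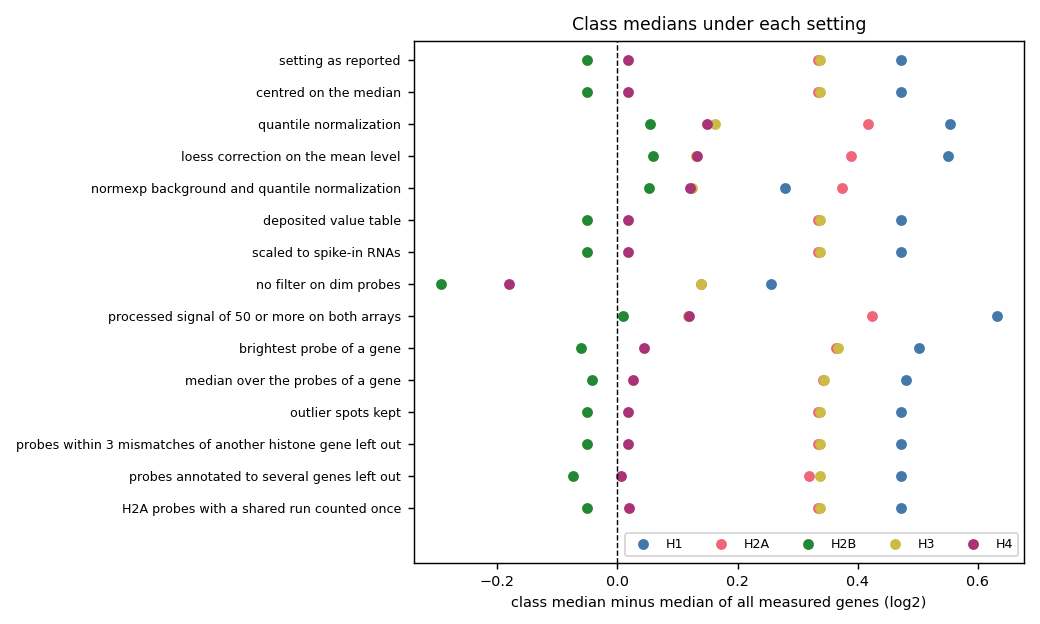
Median of each histone class minus the median of all measured genes (log2, GPHR F/F;Nes minus control) under the reported setting and 14 alternatives. H1 and H2A lie above H2B and H4 in each row, and all classes but H2B and H4 stay above 0 without the filter on dim probes.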

How the data were processed

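Brain RNA of 1 GPHR F/F;Nes mouse and its GPHR F/F control was measured. Per the labels, TRIzol was used for extraction and Cy3 for labelling. Scans were read by Agilent Feature Extraction 11.5.1.1, according to the submitters' processing notes. For every spot the deposited files give an intensity on a linear scale, which per the file headers is background-subtracted and detrended, with its error, and flags (other values) for outliers, saturation and signals well above background. Probe positions are on mm9, per the file headers. The deposited value table is on the log2 scale and equalled the log2 processed intensity plus 1 constant per array within 0.001 for 99.9% of probes (column medians -2.92 for GPHR F/F;Nes and -3.19 for GPHR F/F). It was used as an alternative only, and the sources used here do not say how its constants were set.

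Spots flagged as outliers on either array were left out, log2 values were averaged over the spots of a probe, and the 75th percentile over the 56603 probes of an array was then subtracted. A probe was measured if well above background on both arrays. A gene's value is the mean over its measured probes, with the combined scanner error. Genes above background on 1 array got a bound against their own dim signal or, where higher, the array's floor, which is the lowest signal called well above background (5.06 units in GPHR F/F;Nes and 6.28 units in GPHR F/F). Differences of at least 2-fold were counted. With 1 array per group no test was made, and the number of arrays limits the precision. Alternatives were other scalings, backgrounds, filters and probe rules. All histone genes could be named, with up to 4 members of each related list and Slbp, Npat, Pcna, Mki67, Top2a and Gpr89. The members and lists were chosen with earlier results of these data known. Promoters came from a RefSeq table (GRCm38.p6). Probe positions relative to exons and untranslated regions were not analysed here. The calculation was tested on simulated arrays with known folds. Python 3.11.15, numpy 2.4.6, pandas 2.3.3, matplotlib 3.10.9, R 4.3.3 and limma 3.58.1 were used.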

Additional observations from a re-analysis of the deposited data

How the results depend on the processing

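Hist1h2ac and Hist1h3g, the histone genes past 2-fold, stayed above 0 in the 13 alternatives that kept them, and the filter at 50 units removed both. Their number did not hold. It was 2 as reported, 0 when arrays were centred on the median, quantile-normalized, corrected with normexp and quantile normalization, scaled to spike-in RNAs or limited to signals of 50 units, 1 after loess (2.08%, beside 5.80% of all genes), 5 with no filter on dim probes (8.93%, beside 14.9%), 9 at 1.5-fold (18.8%, beside 18.1%) and 0 at 3-fold (beside 2.29%). The count of 2-fold lower genes was 0, but 8 under spike-in scaling (16.7%, beside 45.7% of all genes). Centring on the median gave medians of 0.078 for all histone genes, 0.27 for H1, 0.13 for H2A, -0.25 for H2B, 0.14 for H3, -0.18 for H4, -0.23 for histone variants, -0.41 for transcription and 3′ processing, -0.21 for chaperones, 0.11 for replication and 0.42 for mitosis. Spike-in scaling gave -0.67, -0.48, -0.62, -1.005, -0.62, -0.94, -0.98, -1.16, -0.96, -0.64 and -0.33 for the same sets in that order. These constants shift every gene alike, so differences between sets are unmoved. The H3 median was 0.13 after quantile normalization, 0.15 after loess, 0.11 after normexp and 0.089 above 50 units. With normexp the H1 median was 0.27 and the mitosis median 0.38, and the variants' median was 0.33 without the filter, and the cause was not tested. The alternative that leaves out probes within 3 mismatches of another histone gene's probe removed 0 probes. Added after seeing the data were 2 alternatives. Leaving out the 18 histone probes annotated to several genes gave a histone median of 0.32 over 33 genes, and counting the 8 H2A probes with shared runs once gave 0.23 over 41 values. No paired analysis was possible because each group has 1 array. Signal over background limits the dim genes most, where errors reached 0.39.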
